A study of Mus musculus with 9 samples.

Results

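Acox2 and 7 other genes of peroxisomal beta-oxidation were followed through RNA-seq of N2A cells depleted of DDX1 or of EXOSC3. N2A is a mouse neuroblastoma cell line, DDX1 is a DEAD-box protein and putative RNA helicase, and EXOSC3 is a cap subunit of the RNA exosome, the complex that degrades and trims RNA from the 3′ end. The 8 genes are Acox2, Acox3, Hsd17b4, Ehhadh, Acaa1a, Scp2, Amacr and Abcd3, of 24318 genes in each table of FPKM values (fragments per length of transcript, scaled for library size in a way not given in the sources used here). Acox2 was chosen because it was among the largest increases after DDX1 depletion, so its values in that comparison are given as a description with no test. The other 7 were taken for their known place in the same pathway.

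The 9 libraries fell into 3 groups of 3. Wild-type N2A cells received scrambled siRNA (siScramble), and the other groups received siRNA against DDX1 (siDDX1, labelled DDX1 knockdown) or against EXOSC3 (siEXOSC3, labelled EXOSC3 knockdown). All 9 carried the label Untreated and all were lipid-transfected, so depletion was transient and partial, and separately plated cultures served as biological replicates. Each knockdown had its own FPKM table with the 3 scramble libraries, so the comparisons share those control libraries and their values below are not independent of each other. The library kit did not keep the strand, and the depth of each library cannot be read from FPKM.

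The targeted genes followed their labels. Ddx1 read 28.1, 28.7 and 34.8 FPKM in the siDDX1 libraries against 129.6, 126.4 and 119.1 in scramble, which left 24.4% ± 2.99 (SD, n = 3) of the scramble mean. Exosc3 read 6.84, 7.68 and 6.01 FPKM in the siEXOSC3 libraries against 45.8, 43.8 and 42.7, which left 15.5% ± 1.90 (SD, n = 3). Pearson's r between libraries of 1 group, on the log2(FPKM + 1) scale, was 0.983 to 0.997. Of 14 neuroblastoma markers, 11 were tested, with the sympathoadrenal regulator gene Hand2 at a mean of 122 FPKM in scramble, while the neurofilament genes Nefl and Nefm and the catecholamine enzyme gene Th lay at means of 0.0081, 0.067 and 0.178. Of the 11, 8 rose after EXOSC3 depletion and 1 after DDX1 depletion, and the summed FPKM of the 14 was 518 to 568 in scramble and 912 to 1003 in siEXOSC3, against 514 to 562 and 523 to 571 in the siDDX1 table. The part of these markers in the results below was not tested. No gene of the hepatocyte (10 genes), fibroblast (6), myeloid (6) or astrocyte (5) marker lists passed the expression filter, and Alb was listed at 0 in every library. The summed FPKM of the hepatocyte list was 0.0857 to 0.753 in scramble, 0.00677 to 0.193 in siDDX1 and 0.118 to 0.701 in siEXOSC3. Of the 5 oligodendrocyte markers, Mbp and Cnp were tested, and Cnp was called higher after EXOSC3 depletion, by 0.32 on the log2 scale (limma, adjusted p = 0.0413), while Mbp had a difference of -0.10 (adjusted p = 0.512). In siDDX1 both lay below scramble in every library, by -0.27 for Cnp and -0.16 for Mbp, and neither was called (adjusted p = 0.101 and 0.306). The siDDX1 replicate 3 library had the highest Ddx1 of its group, and leaving it out raised the genes called in that comparison to 1818 higher and 1709 lower, from 623 and 559.

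Peroxisomes shorten fatty acids that mitochondria handle poorly, such as very long chain and branched-chain fatty acids, and they trim the side chain of bile acid intermediates. An acyl-CoA oxidase takes the first step and passes electrons to oxygen, giving hydrogen peroxide. A bifunctional enzyme then hydrates and dehydrogenates the product, and a thiolase cleaves it. The pathway is best known in liver, where bile acids are made, and its loss in people affects the nervous system as well. In this set ABCD3 is the membrane transporter that brings in branched-chain and bile acid substrates, and AMACR is the racemase that gives them the configuration the oxidases accept. ACOX2 and ACOX3 are the branched-chain oxidases, HSD17B4 and EHHADH are the D- and L-bifunctional enzymes, and ACAA1A and SCP2 are thiolases.

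Acox2 lies on the minus strand of chromosome 14, from 9058025 to 9091867 (mm9, the files' build), and its longest coding transcript in GENCODE has 15 exons. Acox3 lies on the plus strand of chromosome 5, from 35925689 to 35958001, with 19 exons. The 250 bases upstream of the annotated gene start are shown for Acox2, on which the results turn, and for Acox3, the related oxidase that it is compared with. Both were read from the NCBIM37 genome, which is mm9, on the strand of the gene, 5′ to 3′. The windows are chr14:9091868-9092117 (minus) for Acox2 and chr5:35925439-35925688 (plus) for Acox3. Capitals mark the letters searched on both strands: AGGTCA (the core letters of many nuclear receptor sites), GGGCGG (a GC box) and CACGTG (an E-box). CCAAT and TATAAA were searched too, and neither window holds them. GGGCGG matches may overlap each other by up to 1 base, and no match overlaps one of another kind.
Acox2: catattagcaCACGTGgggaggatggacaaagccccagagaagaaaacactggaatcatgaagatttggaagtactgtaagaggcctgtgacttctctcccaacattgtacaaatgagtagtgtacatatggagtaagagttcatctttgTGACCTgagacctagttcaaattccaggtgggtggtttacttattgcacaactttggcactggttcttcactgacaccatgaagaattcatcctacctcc
Acox3: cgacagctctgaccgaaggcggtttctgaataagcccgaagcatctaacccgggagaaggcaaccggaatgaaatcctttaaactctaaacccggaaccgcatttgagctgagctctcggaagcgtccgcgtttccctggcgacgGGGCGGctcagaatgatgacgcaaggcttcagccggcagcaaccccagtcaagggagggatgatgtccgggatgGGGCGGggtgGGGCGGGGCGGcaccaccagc

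The start of Acox2 is uncertain, since RefSeq places it inside the first GENCODE exon, and the start used in N2A cells was not measured here, so the window shown is upstream of the GENCODE start and may not be the promoter in use. This window is poor in CpG. It holds 1 CpG pair and 43.6% G or C, and 7.52% of the 22362 windows of protein-coding genes hold fewer CpG pairs. The window of Acox3 holds 21 CpG pairs and 61.2% G or C, and that of Abcd3, not printed, holds 34 and 72.0%. Such poverty was not particular to Acox2 among the members. The window of Scp2 holds 0 CpG pairs and 42.4% G or C, and that of Hsd17b4 holds 4 and 43.6%. Those of Acaa1a, Ehhadh and Amacr hold 10, 11 and 13 CpG pairs. The median window holds 8 CpG pairs. In the Acox2 window AGGTCA occurs once, on the opposite strand and so printed as TGACCT, and CACGTG occurs once. The Amacr window also holds AGGTCA once. AGGTCA occurs in 12.5% of all windows, CACGTG in 6.52%, CCAAT in 35.0%, TATAAA in 12.3% and GGGCGG in 39.6%, with 4 copies of the last in Acox3. AGGTCA repeated 1 base apart, the arrangement bound by PPAR and RXR, occurs in 0.0492% of windows and in neither printed window. These matches describe letters in a window and were not tied to binding.

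After DDX1 depletion Acox2 was higher in every library than in any scramble library. It read 10.96, 8.54 and 5.59 FPKM in siDDX1 replicates 1, 2 and 3, against 1.42, 1.26 and 0.847 in scramble. The means were 8.36 ± 2.69 and 1.18 ± 0.296 (SD, n = 3 each), a ratio of 7.11, and the difference on the log2(FPKM + 1) scale was 2.07. That scale understates the change of a gene with low values, and with a pseudocount of 0.1 in place of 1 the difference was 2.70. Among 11104 genes with a mean of at least 1 FPKM over the 6 libraries, Acox2 had the 4th largest increase, after Lcn2 (lipocalin 2) at 2.79 and ahead of Il6 (interleukin 6) at 1.72. Replicate 3 was the lowest library for Acox2 in both siDDX1 and scramble, and without siDDX1 replicate 3 the difference was 2.30. In bulk RNA a change in the share of cells that express a gene and a change in RNA per cell cannot be told apart.

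**Figure D1:**
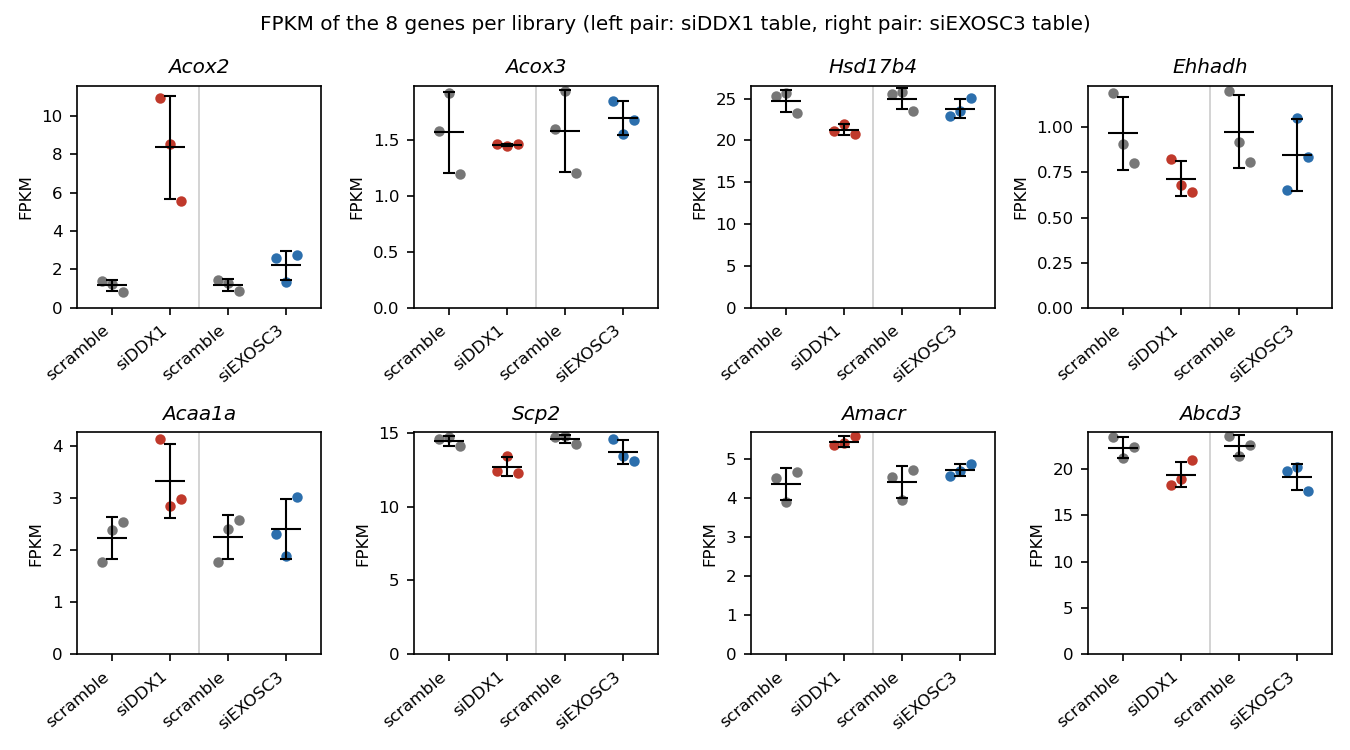
FPKM of each of the 8 genes (y axis, from 0) in the 3 libraries of each group (points), with the mean and SD in black; the left pair in each panel comes from the siDDX1 table and the right pair from the siEXOSC3 table. Acox2 in siDDX1, between 5.59 and 10.96, stands clear of scramble, between 0.847 and 1.42, while no other gene has a knockdown mean above 1.49 times its scramble mean.

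Acox3, the other branched-chain oxidase of the set, read 1.46, 1.44 and 1.46 FPKM in siDDX1 against 1.58, 1.92 and 1.19 in scramble. Its siDDX1 values lay within the scramble range, and the log2 difference was -0.05 (limma, adjusted p = 0.807).

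The genes that act before the oxidase differed in direction. Amacr, the racemase, read 5.34, 5.40 and 5.59 FPKM in siDDX1 against 4.50, 3.90 and 4.66, and its log2 difference was 0.27 (limma, adjusted p = 0.0818). All siDDX1 values lay above scramble. Abcd3, the transporter, read 18.3, 19.0 and 21.0 FPKM against 23.4, 21.2 and 22.3, with all siDDX1 values below scramble. Its log2 difference was -0.19 (limma, adjusted p = 0.121), and it was called without siDDX1 replicate 3 (-0.25, adjusted p = 0.0207).

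Of the enzymes that follow the oxidase, the D-bifunctional enzyme gene Hsd17b4 read 21.1, 22.0 and 20.7 FPKM in siDDX1 against 25.3, 25.6 and 23.2. All siDDX1 values lay below scramble, and the log2 difference was -0.21 (limma, adjusted p = 0.0755). The L-bifunctional enzyme gene Ehhadh read 0.825, 0.678 and 0.640 FPKM against 1.19, 0.908 and 0.800. Its groups overlapped, and with a mean under 1 FPKM it was not tested in either comparison.

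The thiolase genes lay on opposite sides of scramble. Acaa1a read 4.14, 2.85 and 2.98 FPKM in siDDX1 against 1.77, 2.39 and 2.55, all above scramble, and the log2 difference was 0.42 (limma, adjusted p = 0.099). Without siDDX1 replicate 3 it was called (0.47, adjusted p = 0.0403). Scp2, which encodes both a thiolase and a sterol carrier protein, read 12.4, 13.4 and 12.2 FPKM against 14.6, 14.7 and 14.1, all below scramble. Its log2 difference was -0.17 (limma, adjusted p = 0.124).

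Of the 7 members other than Acox2, 6 were tested after DDX1 depletion and 0 were called at an adjusted p under 0.05, while 5 had an unadjusted p under 0.05 in the same limma fit. Over all genes tested 10.6% were called, 5.61% higher and 5.03% lower, and 30.1% had an unadjusted p under 0.05. For 2 of the 6 the siDDX1 libraries lay above scramble and for 3 they lay below, where over all genes 17.0% lay above, 17.8% below and 34.7% either. The median log2 difference of the 6 was -0.11, beside -0.0006 over all genes tested. The non-overlapping differences of these 5 genes ran from 0.861 to 1.49 times the scramble mean, against 7.11 times for Acox2.

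**Figure D2:**
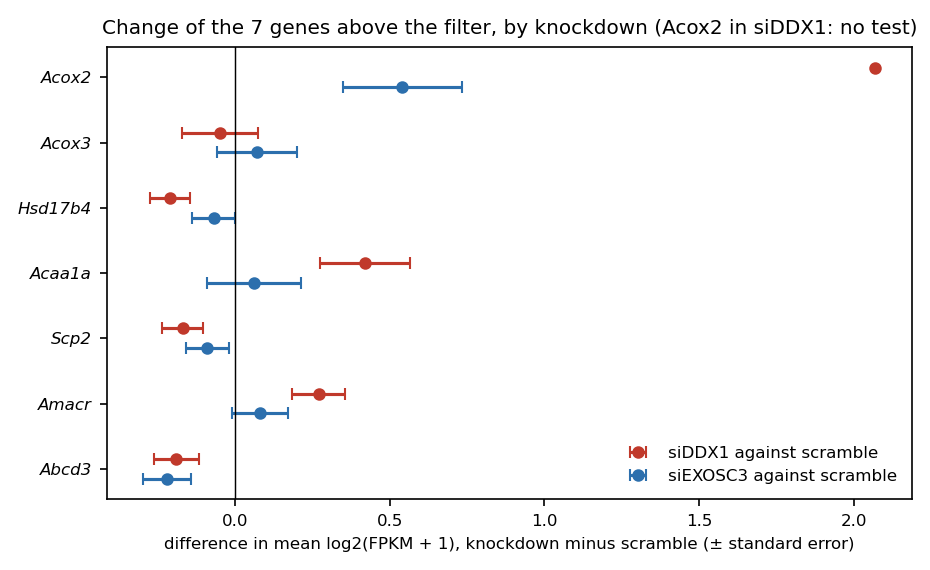
Difference in mean log2(FPKM + 1) between each knockdown and scramble (x axis) for the 7 genes above the expression filter, with bars of 1 standard error and red for siDDX1, blue for siEXOSC3. Acox2 in siDDX1, the value it was chosen on, is drawn at 2.07 as a description with no error bar, and the tested values run from -0.22 to 0.54.

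After EXOSC3 depletion the difference in Acox2 did not pass the test. It read 2.59, 1.36 and 2.74 FPKM in siEXOSC3 replicates 1, 2 and 3 against 1.43, 1.27 and 0.857 in scramble. Replicate 2 lay within the scramble range and the others lay above it, so the groups overlapped. The means were 2.23 ± 0.756 and 1.19 ± 0.297 (SD, n = 3 each), a ratio of 1.88, and the log2 difference was 0.54 ± 0.192 (standard error; limma, adjusted p = 0.0602). Without siEXOSC3 replicate 2 the difference was 0.75 and Acox2 was called (adjusted p = 0.00377), and over 12 alternative settings the adjusted p ran from 0.00377 to 0.187. Acox2 had the 835th largest increase of 11242 genes tested. The difference between its values in the siDDX1 and siEXOSC3 comparisons was not tested, since the gene was chosen on the former.

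The other members were close to scramble in siEXOSC3, with Abcd3 the only one whose groups did not overlap. Abcd3 read 19.8, 20.2 and 17.6 FPKM against 23.6, 21.4 and 22.6, and its log2 difference was -0.22 (limma, adjusted p = 0.0558). Without siEXOSC3 replicate 2 it was called (-0.26, adjusted p = 0.0301). Scp2 read 14.6, 13.4 and 13.1 FPKM (log2 difference -0.09) and Hsd17b4 read 22.9, 23.5 and 25.0 (-0.07), and both overlapped scramble. Amacr read 4.56, 4.70 and 4.87 FPKM, Acox3 1.85, 1.55 and 1.68, and Acaa1a 2.31, 1.89 and 3.03. Their log2 differences of 0.08, 0.07 and 0.06 were within their standard errors and changed sign under quantile normalization. Adjusted p-values of these 5 genes ran from 0.362 to 0.774 (limma). Ehhadh read 0.653, 1.05 and 0.835 FPKM.

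Of the 7 members tested after EXOSC3 depletion, Acox2 included, 0 were called and 2 had an unadjusted p under 0.05 in the same limma fit. Over all genes tested 32.4% were called, 16.7% higher and 15.7% lower, and 45.4% had an unadjusted p under 0.05. For 0 of the 7 the siEXOSC3 libraries lay above scramble and for 1 they lay below, where over all genes 23.8% lay above, 25.9% below and 49.7% either. The median log2 difference of the 7 was 0.06, beside -0.0145 over all genes tested.

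FPKM is per length, so levels can be set beside each other between genes. In scramble the order of mean FPKM was Hsd17b4 at 24.7, Abcd3 at 22.3, Scp2 at 14.4, Amacr at 4.36, Acaa1a at 2.23, Acox3 at 1.57, Acox2 at 1.18 and Ehhadh at 0.966. Hsd17b4 and Abcd3 overlapped in their values, as did each neighbouring pair from Acaa1a down to Ehhadh. The steps from Abcd3 to Scp2, from Scp2 to Amacr and from Amacr to Acaa1a exceeded the spread of the libraries. In siDDX1 Acox2 stood in the 4th place, where its values overlapped those of Amacr (mean 5.44 FPKM), and in siEXOSC3 in the 6th, where they overlapped those of Acaa1a and Acox3.

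Because reads were not assigned to a strand, genes close to a member can matter for its value. Acox2 has 1 annotated neighbour within 5 kb, Kctd6, an adaptor of a ubiquitin ligase, which ends 1943 bases beyond the end of Acox2 on the opposite strand. Kctd6 read 24.5, 24.2 and 18.6 FPKM in siDDX1 against 20.2, 21.5 and 17.5, and its groups overlapped. Its log2 difference was 0.17 after DDX1 depletion (limma, adjusted p = 0.351) and -0.03 after EXOSC3 depletion (adjusted p = 0.854).

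Acox3 overlaps 4931431C16Rik, a long noncoding RNA gene on the opposite strand, by 5724 bases. That gene read 0.115 to 0.234 FPKM in siDDX1, 0.101 to 0.224 in scramble and 0.205 to 0.325 in siEXOSC3. Within Hsd17b4 lies Cd63-ps (875 bases) and within Abcd3 lies Gm17676 (169 bases), for which no values are given.

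Acaa1a overlaps Myd88, a Toll-like receptor adaptor gene on the opposite strand, by 118 bases, and reads there cannot be told apart. Myd88 read 2.87, 1.60 and 3.82 FPKM in siDDX1 against 4.20, 3.06 and 3.75 (log2 difference -0.35, limma, adjusted p = 0.298), and it fell after EXOSC3 depletion (-0.54, adjusted p = 0.0152). Acaa1a also has a near-identical copy, Acaa1b, at means of 0.207 FPKM in scramble and 0.198 in siDDX1, so its values are uncertain to the extent that reads were shared. Amacr follows C1qtnf3 by 1605 bases on the same strand, and C1qtnf3 had means of 0.127 FPKM in scramble and 0.0493 in siDDX1.

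The genes around the pathway were described through 8 lists with 110 genes, of which 69 were tested after DDX1 depletion. In that comparison 7 rose and 4 fell, beside 5.61% and 5.03% of all genes, and the median log2 difference was 0.09. Only Prdx5 and Gstk1 stayed called in each of the 6 fits that left out 1 library, and the other 9 lost the call in at least 1. Without siDDX1 replicate 3, 19 rose, and without siScramble replicate 1 or 3, 2 rose and 0 fell. After EXOSC3 depletion 16 of 68 rose and 6 fell, beside 16.7% and 15.7% of all genes, with a median of 0.04, and 11 of these 22 stayed called in each such fit, namely Ech1, Crat, Nudt7, Lonp2, Prdx5, Gstk1, Pprc1, Acot2, Ucp2, Slc25a20 and Acads.

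Of 22 other genes of peroxisomal beta-oxidation, 14 were tested, and 2 rose and 1 fell after DDX1 depletion, beside 5.61% and 5.03% of all genes. Ech1, a dienoyl-CoA isomerase, read 56.8, 57.3 and 43.4 FPKM in siDDX1 against 33.8, 38.3 and 34.3 (log2 difference 0.54, limma, adjusted p = 0.0215). Lonp2, the peroxisomal Lon protease, read 21.7, 24.6 and 21.0 FPKM against 17.6, 16.0 and 17.0 (0.39, adjusted p = 0.0203). Crat, which makes acetylcarnitine from the acetyl-CoA that beta-oxidation yields, fell (-0.46, adjusted p = 0.00868). The 11 others tested ran from -0.23 for Crot to 0.27 for Nudt7, and 8 genes, with Slc27a2 and Acoxl among them, were under the filter. After EXOSC3 depletion 4 of the 14 rose and 1 fell, beside 16.7% and 15.7% of all genes. Ech1 (0.83), Lonp2 (0.55) and the coenzyme A diphosphatase gene Nudt7 (0.89) were among those that rose and Crat (-0.48) fell, with adjusted p from 0.000938 to 0.00641 in limma.

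The bile acid and alpha-oxidation list had 4 of its 12 genes tested and 0 called in either comparison, with 0 at an unadjusted p under 0.05 in limma. Phyh, which starts the breakdown of phytanic acid, read 40.8, 41.0 and 35.4 FPKM in siDDX1 against 37.4, 33.2 and 32.4 (log2 difference 0.18, adjusted p = 0.178). Hsd3b7, a dehydrogenase of bile acid synthesis, read 5.88, 5.46 and 2.56 FPKM against 3.41, 3.42 and 3.82, with siDDX1 replicate 3 below all scramble libraries and the others above (0.25, adjusted p = 0.491). The rate-limiting bile acid enzyme Cyp7a1 and the conjugating enzyme Baat had means of 0.145 and 0.121 FPKM in scramble and were not tested. Cyp27a1, which oxidises the sterol side chain, had means of 0.346 in scramble and 0.399 in siDDX1.

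Among peroxisomal redox enzymes 5 of 12 were tested and 2 rose in each comparison. Of all genes, 5.61% rose after DDX1 depletion and 16.7% after EXOSC3 depletion. Gstk1, a glutathione transferase of mitochondria and peroxisomes, read 4.74, 4.94 and 5.39 FPKM in siDDX1 against 2.13, 2.53 and 3.09 (log2 difference 0.76, limma, adjusted p = 0.00911). Prdx5, a peroxiredoxin, read 45.1, 46.0 and 42.7 FPKM against 30.5, 28.0 and 30.3 (0.58, adjusted p = 0.00407). Both groups stood apart for each gene. In siEXOSC3 Gstk1 rose by 0.80 and Prdx5 by 0.78 (adjusted p = 0.00416 and 0.00169). Cat, the catalase that removes the peroxide made by the oxidases, had a log2 difference of -0.29 after DDX1 depletion (adjusted p = 0.0964) and 0.03 after EXOSC3 depletion (adjusted p = 0.884).

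Of 17 peroxins, the factors that build peroxisomes and import their enzymes, 15 were tested. Pex6, an ATPase that recycles the import receptor, rose after DDX1 depletion (0.47, limma, adjusted p = 0.0282) and Pex13, part of the docking complex, fell (-0.28, adjusted p = 0.0269). After EXOSC3 depletion 4 rose and 1 fell, beside 16.7% and 15.7% of all genes. Pex11g (0.70), Pex6 (0.39) and Pex16 (0.31) rose most, and Pex13 fell, with adjusted p from 0.0162 to 0.0422 in limma. Of the 6 siEXOSC3 fits that left out 1 library, Pex11g and Pex6 lost the call in 3 and Pex16 and Pex13 in 4. In siDDX1 Pex6 and Pex13 each lost it in 5 of 6. The ether lipid list had 3 of 4 genes tested, with 0 called after DDX1 depletion (1 at an unadjusted p under 0.05 in limma) and 1, Agps, lower after EXOSC3 depletion (-0.28, adjusted p = 0.0338), a call lost in 5 of the 6 siEXOSC3 fits.

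PPARα, the receptor that drives peroxisomal genes in liver, was hardly expressed, with Ppara at means of 0.266 FPKM in scramble and 0.200 in siDDX1. Of 9 receptor and partner genes 6 were tested, and Rxrb, a retinoid X receptor gene, rose after DDX1 depletion (0.43, limma, adjusted p = 0.014) while the coactivator gene Pprc1 fell after EXOSC3 depletion (-0.43, adjusted p = 0.00536). Pparg read 25.9, 22.2 and 18.2 FPKM in siDDX1 against 18.4, 17.3 and 14.8, with overlapping groups (0.36, adjusted p = 0.102). Ppard lay above scramble in every library of both knockdowns and was called in neither (0.34, adjusted p = 0.0549 in siDDX1, and 0.56, adjusted p = 0.0632 in siEXOSC3). Of 15 PPAR target genes 4 were tested after DDX1 depletion and 1 rose, the hormone gene Fgf21, from a mean of 0.765 to 1.60 FPKM (0.56, adjusted p = 0.0176). Fgf21 passed the expression filter only through its siDDX1 libraries, so its place among the 7 pathway genes that rose depends on the group where it was high, and with no filter its adjusted p was 0.0253. After EXOSC3 depletion 3 were tested, of which Ucp2, a mitochondrial carrier, rose (1.08, adjusted p = 0.000932) and Acot2, a mitochondrial thioesterase, fell (-0.76, adjusted p = 0.00172). Angptl4, a target gene under the filter and so not tested, lay below scramble in every library of both knockdowns. Its means were 0.351 FPKM in scramble and 0.151 in siDDX1, and 0.354 in scramble and 0.204 in siEXOSC3.

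Mitochondrial beta-oxidation had 18 of 19 genes tested. After DDX1 depletion 0 rose and 2 fell, beside 5.61% and 5.03% of all genes. Those that fell were Cpt1a, the gatekeeper of fatty acid entry (-0.49, limma, adjusted p = 0.0132), and Hadh (-0.21, adjusted p = 0.0498). Hadh was not called in 5 of 7 other alternatives. After EXOSC3 depletion 5 rose and 1 fell, beside 16.7% and 15.7% of all genes. The largest changes in the list were those of the short-chain dehydrogenase gene Acads (0.55), the carnitine carrier gene Slc25a20 (0.36) and the thiolase gene Acaa2 (0.31), with adjusted p from 0.00766 to 0.0128.

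**Figure D3:**
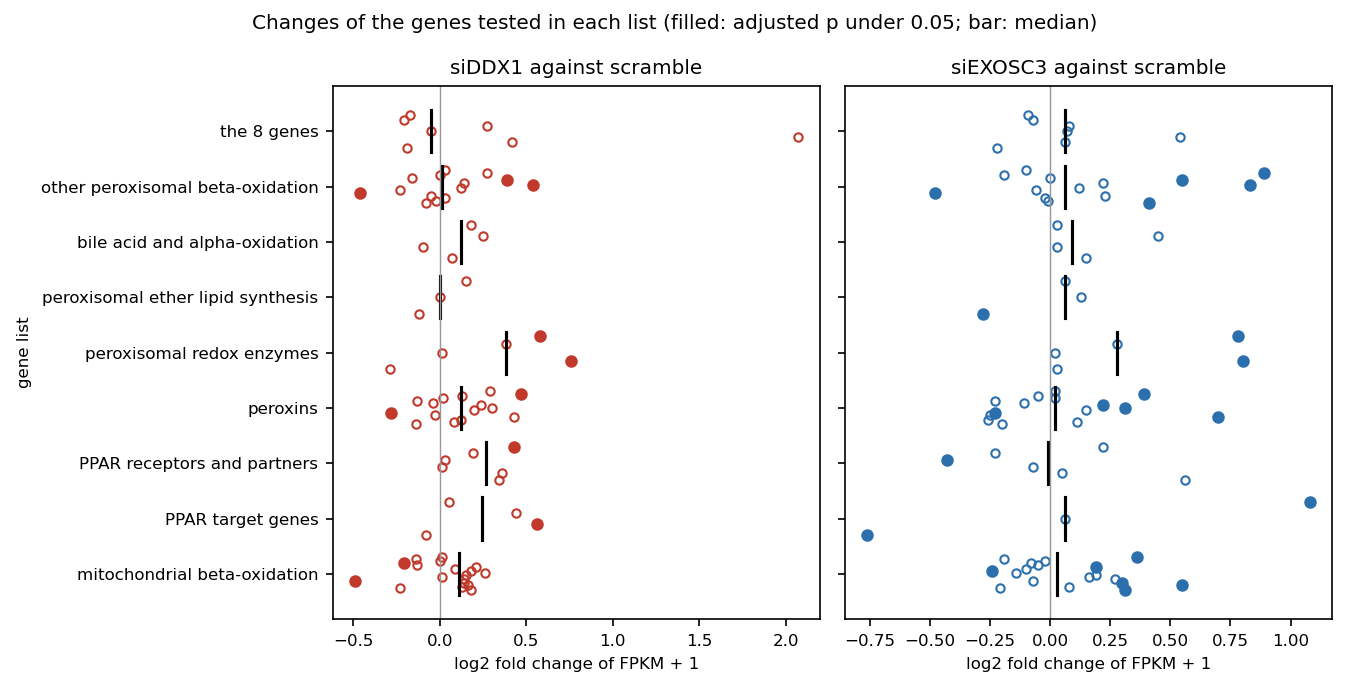
Log2 fold changes of FPKM + 1 (x axis) for the genes tested in the set of 8 and in each pathway list (rows), after DDX1 depletion (left) and EXOSC3 depletion (right); filled points passed an adjusted p of 0.05, open points did not or, for Acox2 in siDDX1, were not tested, and black bars are medians. Acox2 lies at 2.07 on the left, where the pathway lists run from -0.49 to 0.76.

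The genes whose pattern over the libraries was most like that of Acox2 were sought among 11053 genes, by the smaller of the 2 Pearson correlations over the 6 libraries of each table. They were Shpk (sedoheptulokinase, 0.979), Mrpl24 (a mitochondrial ribosomal protein, 0.972), Sub1 (a transcriptional coactivator, 0.972), Arsg (a lysosomal sulfatase, 0.966) and Atp2a3 (an endoplasmic reticulum calcium pump, 0.965). The points share libraries and scaling, and the correlations are descriptions. The sizes of change differed: in siDDX1 the 5 genes were 1.22 to 1.83 times their scramble means, from Sub1 to Arsg, where Acox2 was 7.11 times. In siEXOSC3 Arsg stood at 2.31 times its scramble mean and Acox2 at 1.88 times.

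**Figure D4:**
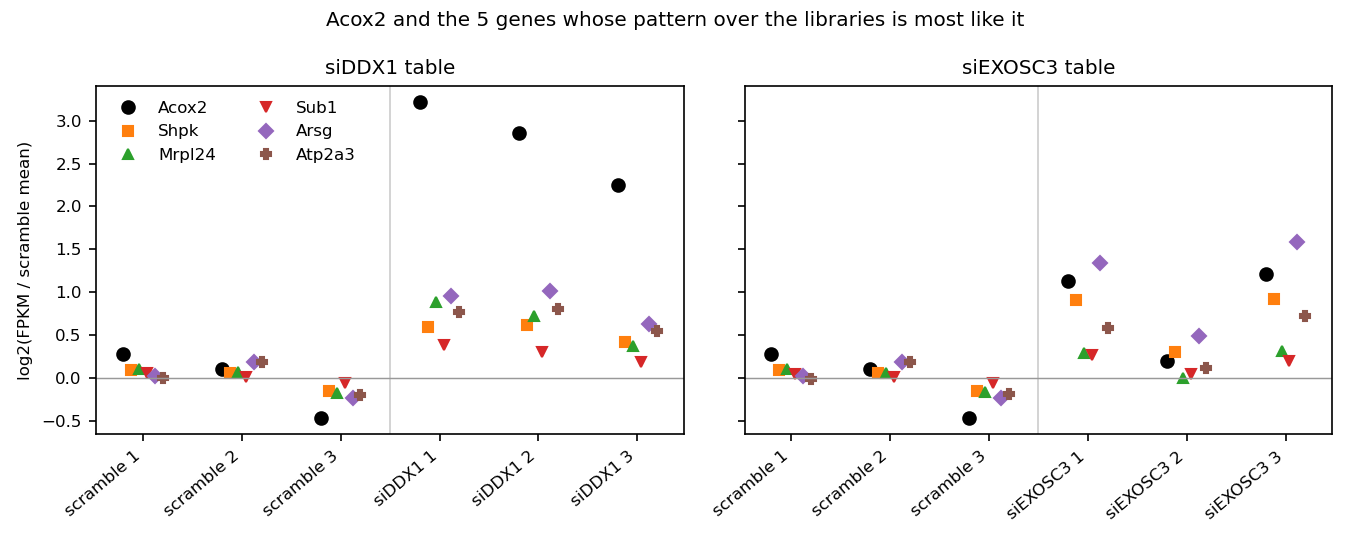
Log2 ratio of FPKM to the scramble mean (y axis) for Acox2 (black) and the 5 genes most like it, in each library of the siDDX1 table (left) and the siEXOSC3 table (right). Replicate 3 is the lowest siDDX1 library and replicate 2 the lowest siEXOSC3 library for Acox2 and for each of the 5. The 5 were picked for their correlation with Acox2 over these same libraries. A shared order was favoured by that choice and is no separate result.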

How the data were processed

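rRNA-depleted RNA of N2A cells was sequenced as nondirectional libraries, 3 for each of siScramble, siDDX1 and siEXOSC3. Per the study's methods, the authors aligned reads to mm9 with TopHat 2.1.0, sorted them with SAMtools and ran Cuffdiff 2.2.1. The authors deposited 2 tables of FPKM values per gene and library, with siDDX1 in one and siEXOSC3 in the other, and scramble in both. The annotation and the library normalization used by Cuffdiff are not given in the sources used here. FPKM values of the same scramble library differed between the tables by a median factor of 1.008 to 1.012, so tests were made only within a table. The study's methods state a target read number per sample, but FPKM keeps no read totals. The depth reached is therefore unknown and no counting interval is given.

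Within each table, genes with a mean of at least 1 FPKM over the 6 libraries were fitted as log2(FPKM + 1) in limma 3.58.1 (R 4.3.3) with an intensity trend, knockdown against scramble, two-sided, with Benjamini-Hochberg adjustment over all genes tested and a threshold of 0.05. The fit was checked on simulated data first. Alternatives were a pseudocount of 0.1, no filter, a minimum of 5 FPKM, quantile normalization, median centring, no trend, the replicate number as a block, and leaving out each library.

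The 8 genes and all lists were chosen with earlier results of these data known. Named genes are the 8, the targets, up to 3 called genes per list with the largest change, the list of other peroxisomal beta-oxidation genes, neighbours within 5 kb of Acox2, and the 5 genes with the pattern most like it. Lcn2, Il6, Cat, Phyh, Hsd3b7, Cyp7a1, Baat, Cyp27a1, Ppara, Pparg, Ppard, Angptl4, Myd88, C1qtnf3, 4931431C16Rik, Cd63-ps, Gm17676, Rxra, Echs1 and the marker genes were named outside this rule, after their values or positions were seen. Every listed symbol matched a row. Gene positions come from GENCODE vM1 and sequence from NCBIM37, which is mm9. Some genes and upstream sequences are not reported here.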

Additional observations from a re-analysis of the deposited data

Results flagged for a closer look

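Among the 8 genes and the pathway lists, the libraries of the knockdowns lay on opposite sides of scramble for 2 genes. Rxra, a retinoid X receptor gene, had a log2 difference of 0.19 after DDX1 depletion, with all siDDX1 libraries above scramble, and of -0.23 after EXOSC3 depletion, with all siEXOSC3 libraries below (limma, adjusted p = 0.232 and 0.133). Echs1, a mitochondrial enoyl-CoA hydratase gene, had differences of 0.26 and -0.14 in the same way (adjusted p = 0.0933 and 0.124). The difference between the knockdowns was not tested for either gene, and neither passed the test in either comparison. None of the 8 genes was flagged in this way.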

How the results depend on the processing

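Acox2 stayed between 1.87 and 2.70 on the log2 scale in siDDX1 over all alternatives that gave a value; a minimum of 5 FPKM removed Acox2, Acox3, Acaa1a and Amacr from the test. For the other members 4 calls appeared, each when 1 library was left out: Acaa1a and Abcd3 without siDDX1 replicate 3, and Acox2 and Abcd3 without siEXOSC3 replicate 2, so the members called higher or lower ranged from 0 to 1 in each comparison. Some signs reversed, and none of the reversed values was called. Acox3 in siDDX1 was 0.04 without siScramble replicate 2. In siEXOSC3 Acox3 was -0.09 (quantile normalization) and -0.04 (without siScramble replicate 3). Acaa1a in siEXOSC3 was -0.09 (quantile normalization), -0.07 (without siEXOSC3 replicate 3) and -0.05 (without siScramble replicate 1). Amacr in siEXOSC3 was -0.0001 (quantile normalization). When 1 library was left out, Acox3 ranged from -0.16 to 0.04 in siDDX1 and from -0.04 to 0.17 in siEXOSC3, and Acaa1a from -0.07 to 0.18 in siEXOSC3.

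Counts over all genes depended on single libraries. After DDX1 depletion leaving out siDDX1 replicate 3 gave 1818 higher and 1709 lower, and leaving out any other library gave 96 to 285 higher and 61 to 236 lower. With no filter on low FPKM, and so more genes tested, they were 387 and 330. After EXOSC3 depletion the counts ranged from 1025 to 2384 higher and 582 to 2502 lower when 1 library was left out; the lowest came without siScramble replicate 1, and siEXOSC3 replicate 1 (1180 and 868), siScramble replicate 2 (931 lower) and siScramble replicate 3 (1182 and 806) also moved a count by over 1.5 times. Pathway genes called ranged from 2 to 19 higher and 0 to 6 lower in siDDX1, and from 9 to 23 higher and 3 to 9 lower in siEXOSC3. The cause of these shifts was not tested.

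The labels number replicates 1 to 3 in each group, but same-numbered libraries did not deviate together throughout (r = -0.012, 0.379 and 0.372 in siDDX1, 0.035, -0.31 and -0.126 in siEXOSC3), and not every library correlated best with its own number, so the numbers were not taken as pairs. With the replicate number as a block, the counts were 1085 higher and 808 lower in siDDX1 and 1390 higher and 1059 lower in siEXOSC3, pathway genes were 12 higher and 3 lower in siDDX1 and 10 higher and 3 lower in siEXOSC3, and no call among the members tested changed. With 3 libraries a group and unknown depth, an adjusted p above the threshold does not show that a member did not differ.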
